A study of Caenorhabditis elegans with 16 samples.

Results

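The miR-2, miR-43 and miR-250 family of Caenorhabditis elegans was followed across small RNA libraries made from pulldowns of selected mRNAs. All mature miRNAs listed under the names miR-2, miR-43 and miR-250 were taken, both arms of each hairpin, which gave 6 members (cel-miR-2-3p, cel-miR-2-5p, cel-miR-43-3p, cel-miR-43-5p, cel-miR-250-3p and cel-miR-250-5p) of the 434 mature miRNAs in each count table. Membership follows from the names and uses no measured value. The libraries came from young adult worms in which RNA had been crosslinked to bound protein, and biotinylated DNA probes then retrieved a chosen transcript together with what was attached to it (vIPR). In the no-target control (n = 3), probes against the gfp coding sequence were used on wild-type N2 worms, which carry no gfp. These gfp probes were further used on strain BS1080, for the transcript of a gld-1::gfp transgene (n = 2), and on strain DG3913, for a gfp::lin-41 transcript (n = 1). Endogenous gld-1 (n = 2), alg-1 (n = 2) and lin-41 (n = 2) transcripts were retrieved from N2 worms with probes tiling each transcript. The gld-1 probe set was applied as well to worms whose own gld-1 gene carried CRISPR edits in the predicted miR-84 site of its 3′ UTR, either within the seed match (seed destruction, n = 2) or outside it, which was designed to turn the site into one for let-7 (changed specificity, n = 2). All groups retrieved with gene probes differ from the control in the probe set as well as the transcript, and the edited strains also in genotype, which cannot be told apart in comparisons with the control. For the endogenous and edited transcripts, the paper describes the replicates as independent pulldown experiments. Nothing in the labels says that replicates came from separate cultures, so the p-values measure the spread between libraries, which may be technical.

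A miRNA hairpin is cut into a short duplex with a 5p and a 3p arm. Usually the guide arm is loaded into an Argonaute protein, where its seed (bases 2 to 8) pairs with sites in mRNA 3′ UTRs, and the other arm, the passenger, is discarded. The 3p arms of mir-2, mir-43 and mir-250 are grouped in miRNA databases as 1 family by sequence at their 5′ ends, and miR-2 has relatives across insects and worms. In Drosophila, miR-2 family members repress the cell death genes reaper, grim and sickle. Which arms came down with a transcript, and whether they came down more than in the control, can be read separately for each arm.

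The hairpins lie on 3 chromosomes of the WBcel235 assembly. The mir-2 hairpin (chromosome I, 9372768 to 9372865, minus strand) sits in an intron of ppfr-1, a gene for a protein phosphatase regulatory subunit that is transcribed from the same strand, and mir-71 lies 7061 bases away in another part of the same gene. The mir-43 hairpin (chromosome II, 11889910 to 11890007, plus strand) stands 4 bases after mir-42 and 15 bases before mir-44, and an annotated ncRNA, ZK930.12, covers it on the opposite strand. The mir-250 hairpin (chromosome V, 11769917 to 11770015, minus strand) follows mir-61 after 44 bases and overlaps no other annotated gene. In C. elegans, mir-61 is known as a gene activated by LIN-12/Notch signalling in vulval precursor cells. The annotated mature arms are 22 (cel-miR-2-5p), 23 (cel-miR-2-3p), 24 (cel-miR-43-5p), 23 (cel-miR-43-3p), 22 (cel-miR-250-5p) and 20 bases long (cel-miR-250-3p).

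Total miRNA reads ranged from 12474 (control replicate 3) to 2081849 (gfp::lin-41). A few miRNAs took most of some libraries. let-7-5p held 75.1% ± 12.6 of lin-41 reads (SD, n = 2) and 92.1% ± 4.31 of changed specificity reads (n = 2), miR-84-5p held 64.3% ± 2.77 of gld-1::gfp reads (n = 2) and miR-71-5p 49.6% ± 7.30 of alg-1 reads (n = 2). In the control, these 3 held 5.02% ± 1.51, 0.881% ± 0.651 and 3.13% ± 1.27 (n = 3). Levels are therefore given as normalised CPM, which are counts per 1000000 reads after scaling by trimmed mean of M values (TMM). This scaling sets libraries to the bulk of miRNAs, and raw reads stand beside the CPM. The TMM factors ran from 0.155 to 5.31, and scaling by library totals alone, which turns some directions, was run beside TMM.

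Members of the family were minor components of all pulldowns. Together they made up 0.152% (95% Wilson interval 0.126 to 0.182), 0.211% (0.172 to 0.259) and 0.305% (0.222 to 0.418) of the reads in control replicates 1 to 3. Their share was smallest in lin-41, at 0.00550% (0.00425 to 0.00710) and 0.00918% (0.00556 to 0.0151), and largest in seed destruction, at 0.620% (0.578 to 0.666) and 0.506% (0.465 to 0.552). PCR duplicates could not be removed, so these intervals account for counting error and nothing else. Of the 6 members, 5 had a read in some library. Only cel-miR-2-3p, cel-miR-250-3p and cel-miR-250-5p reached 10 reads in at least 2 libraries, the minimum set for testing, and these 3 were tested beside 109 other miRNAs.

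On the TMM scale, the family did not move as a unit. cel-miR-250-5p differed from the control in 4 of the 6 replicated pulldowns: it was higher with changed specificity, seed destruction and gld-1::gfp and lower with lin-41. cel-miR-250-3p, from the same hairpin, passed the test in gld-1::gfp, where it was lower, and cel-miR-2-3p passed it in none of the 6. Over all 112 tested miRNAs, 12.5% to 22.3% were called in these 6 comparisons. By library totals in place of TMM, cel-miR-250-5p was higher than in the control only with seed destruction, and its values for gld-1::gfp and changed specificity turned negative. On that scale cel-miR-250-3p was also called lower in lin-41 (-4.15, adjusted p-value 0.0031) and changed specificity (-5.60, adjusted p-value 2.8e-04). By library totals cel-miR-2-3p was called lower in lin-41 too (-4.49), so all 3 tested members were called lower there. All 3 also had values under 0 in gld-1::gfp and changed specificity, so the separate behaviour of the arms depends on the scale.

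cel-miR-250-5p, the partner strand of the arm that carries the family resemblance, was the most abundant member. In the control it had 49, 52 and 14 reads (153, 255 and 211 normalised CPM). The seed destruction libraries gave 724 and 449 reads (2143 and 1387 normalised), and the changed specificity libraries 365 and 470 reads (1946 and 1579). The gld-1::gfp libraries gave 1551 and 318 reads (1567 and 1507), the endogenous gld-1 libraries 82 and 195 reads (355 and 732). All 8 libraries of gld-1 transcripts, edited or not, thus lay above the 3 controls on this scale. The alg-1 libraries held 41 and 16 reads (149 and 98.4), the lin-41 libraries 19 and 2 reads (70.0 and 19.5) and the gfp::lin-41 library 57 reads (81.7). Each of these 5 libraries lay below all 3 controls. Ordered by mean normalised level, the groups were seed destruction (1765 ± 535), changed specificity (1763 ± 259), gld-1::gfp (1537 ± 42.2), gld-1 (544 ± 266), control (206 ± 51.2, n = 3), alg-1 (124 ± 35.5), gfp::lin-41 (81.7, 1 library) and lin-41 (44.8 ± 35.7), with n = 2 where not stated. Only the seed destruction and changed specificity ranges overlapped among neighbours in that order. How many of the other tested miRNAs separate the libraries in these ways was not counted. The separation is therefore not shown to be particular to cel-miR-250-5p.

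**Figure D1:**
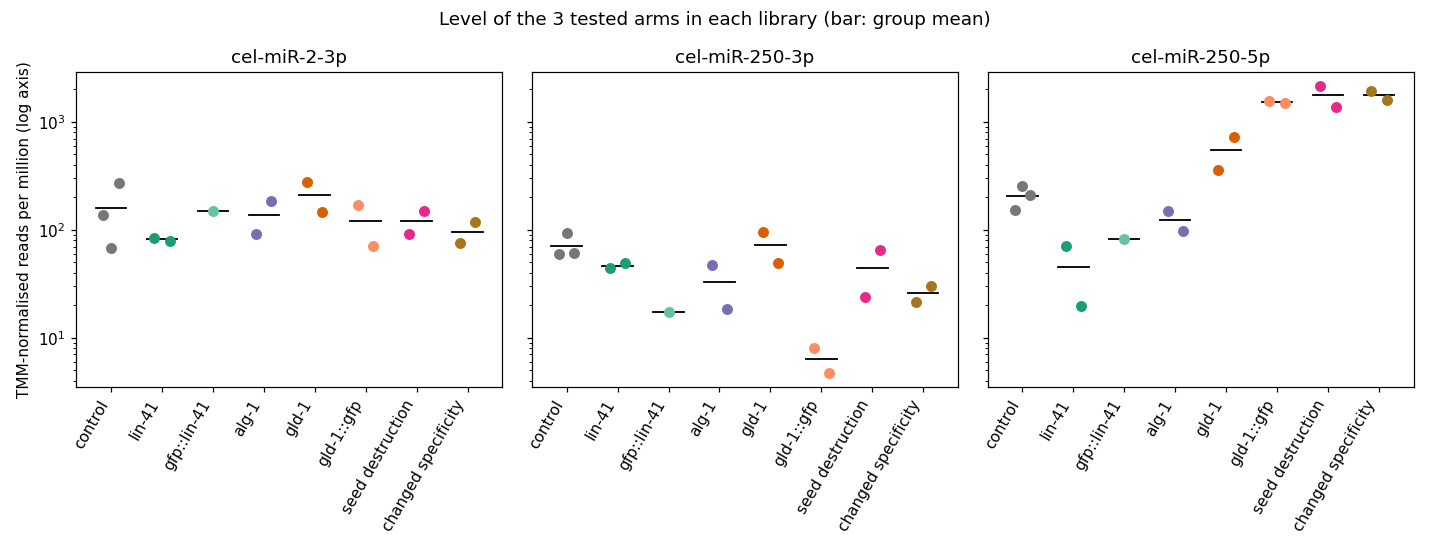
TMM-normalised CPM (log axis) of the 3 tested arms in each of the 16 libraries, by group; points are libraries and bars group means. cel-miR-250-5p lay between 355 and 2143 in the 8 libraries of gld-1 transcripts and between 153 and 255 in the controls, a separation that library totals keep only for seed destruction, while cel-miR-2-3p overlapped between all groups next to each other in mean level.

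Against the control, cel-miR-250-5p was higher in seed destruction by 3.10 on the log2 scale (SE 0.58, edgeR quasi-likelihood adjusted p-value 3.9e-04). Here 17.9% of the 112 miRNAs tested were called. In raw shares, both seed destruction libraries (0.588% and 0.437%) also exceeded the controls (0.0663%, 0.122% and 0.112%), and library totals as the scale gave 2.37 (adjusted p-value 0.0205).

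In changed specificity, cel-miR-250-5p was likewise higher by 3.10 (SE 0.58, adjusted p-value 2.7e-04, 21.4% of miRNAs called). The gld-1::gfp value was 2.90 (SE 0.58, adjusted p-value 5.2e-04, 12.5% called). Both directions depend on the scale. With library totals the values were -1.21 (adjusted p-value 0.117) and -0.53 (adjusted p-value 0.468). let-7-5p held most reads of the former libraries and miR-84-5p of the latter. For gld-1::gfp, where the control used the same probes, the libraries that share a name prefix differed by 3.31 (prefix E) and 2.80 (prefix PD1) with TMM. Each of these differences is between a single library of either group.

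In endogenous gld-1, cel-miR-250-5p differed from the control by 1.40 (SE 0.57, adjusted p-value 0.0824, 22.3% called), which did not pass the threshold (unadjusted p-value 0.0206). Library totals gave -1.09 (adjusted p-value 0.188), and within prefix PD1, with a single library of either group, the TMM difference was 1.76. A fit with the name prefix as a factor gave 2.04 (adjusted p-value 0.0024). What the prefixes stand for is not stated in the labels.

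In lin-41, cel-miR-250-5p was lower than in the control by a log2 fold change of -2.07 (SE 0.66, adjusted p-value 0.0257, 17.9% called). Library totals gave the same direction (-5.95). The call was lost without lin-41 replicate 2, which held 2 reads (-1.55, adjusted p-value 0.290), without control replicate 2 (-1.85, adjusted p-value 0.0508) and with the replicate block (-2.09, adjusted p-value 0.0548). Without lin-41 replicate 1 it was -3.37. In alg-1 the value was -0.72 (SE 0.60, adjusted p-value 0.478, 21.4% called), and library totals gave a call in the same direction (-2.37, adjusted p-value 0.0220).

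**Figure D2:**
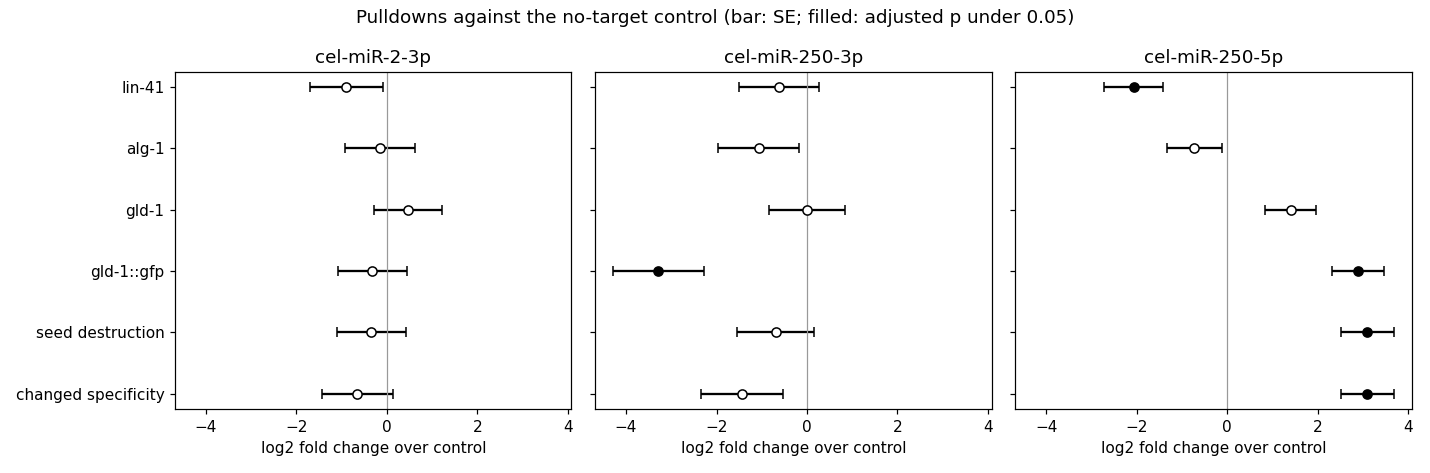
log2 fold change over the no-target control (x axis) of cel-miR-2-3p, cel-miR-250-3p and cel-miR-250-5p in the 6 replicated pulldowns, from the TMM-scaled edgeR fit; bars are SE and filled points passed an adjusted p-value of 0.05. The filled points are cel-miR-250-5p at -2.07, 2.90, 3.10 and 3.10 and cel-miR-250-3p at -3.29, and by library totals the cel-miR-250-5p values for gld-1, gld-1::gfp and changed specificity fall under 0.

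Whether the edits in the miR-84 site went with a change in the family was asked against unedited gld-1, retrieved with the same probes. For cel-miR-250-5p both edited strains gave higher values, by 1.70 in seed destruction (SE 0.63, adjusted p-value 0.366, 1.79% called) and by 1.70 in changed specificity (SE 0.63, adjusted p-value 0.235, 2.68% called), and neither passed the threshold (unadjusted p-values 0.0124 and 0.0126). DESeq2 called no member in either comparison. All 4 edited libraries lay above both gld-1 libraries on the TMM scale. The approximate 95% intervals, 0.46 to 2.94 and 0.46 to 2.93, lay above 0. They are not adjusted for the number of miRNAs tested, unlike the p-values that missed the threshold. With the name prefix as a factor the values were 2.54 (edgeR adjusted p-value 0.0022) and 2.57 (edgeR adjusted p-value 0.0012). In prefix PD3 alone, with a single library of each group, they were 2.57 and 2.43. The other edited libraries had no prefix, and no gld-1 library was without one. The edited strains thus share a prefix only with gld-1 replicate 1, the lower of the gld-1 libraries for cel-miR-250-5p on the TMM scale. For changed specificity the direction turned with library totals (-0.12). For seed destruction library totals gave 3.46 (adjusted p-value 0.0125) and a fit of only the compared groups 2.01 (adjusted p-value 0.0467).

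The gld-1::gfp transcript, from a transgene and retrieved with gfp probes, gave a cel-miR-250-5p value 1.50 above endogenous gld-1 (SE 0.63, adjusted p-value 0.146, 11.6% called). Comparisons between the endogenous transcripts were added after the data had been seen. cel-miR-250-5p was lower in lin-41 than in gld-1 by -3.47 (SE 0.71, adjusted p-value 6.7e-04, 15.2% called) and lower in alg-1 than in gld-1 by -2.13 (SE 0.66, adjusted p-value 0.0184, 17.9% called). The call for lin-41 held under all 26 alternatives run, though its size moved to -4.77 without lin-41 replicate 1 and to -2.86 without gld-1 replicate 2. That for alg-1 was lost without gld-1 replicate 2 (-1.51, adjusted p-value 0.291), without alg-1 replicate 1 (-2.46, adjusted p-value 0.0643), without alg-1 replicate 2 (-1.94, adjusted p-value 0.165) and with library totals (-1.28, adjusted p-value 0.339).

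cel-miR-250-3p, the arm grouped with miR-2, was rarer. It had 19, 19 and 4 reads in the controls (59.2, 93.0 and 60.4 normalised CPM) and 8 and 1 reads in gld-1::gfp (8.08 and 4.74). These were the lowest normalised levels of any library. The endogenous gld-1 libraries held 22 and 13 reads (95.3 and 48.8), seed destruction 8 and 21 (23.7 and 64.8) and changed specificity 4 and 9 (21.3 and 30.2). The lin-41 libraries held 12 and 5 reads (44.2 and 48.7), gfp::lin-41 12 (17.2) and alg-1 13 and 3 (47.1 and 18.5). By mean normalised level the order was gld-1, control, lin-41, seed destruction, alg-1, changed specificity, gfp::lin-41 and gld-1::gfp. Library ranges did not overlap between the control and lin-41, between changed specificity and gfp::lin-41 and between gfp::lin-41 and gld-1::gfp, and overlapped for the other neighbours.

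The level of cel-miR-250-3p in gld-1::gfp was lower than in the control by a log2 fold change of -3.29 (SE 1.00, edgeR adjusted p-value 0.0232). On the TMM scale this was the opposite direction to cel-miR-250-5p in the same libraries, but by library totals cel-miR-250-5p too was under 0 (-0.53). Within name prefixes the cel-miR-250-3p difference was -2.17 (E) and -2.58 (PD1), each between single libraries. cel-miR-250-3p was also lower than in endogenous gld-1 by -3.29 (SE 1.03, edgeR adjusted p-value 0.0377). Both rest on 9 reads in gld-1::gfp. Without gld-1::gfp replicate 1 the adjusted p-values were 0.188 against the control and 0.277 against gld-1, and without replicate 2 they were 0.142 and 0.212. The call against gld-1 was further lost without gld-1 replicate 1 (adjusted p-value 0.343), gld-1 replicate 2 (0.0780), alg-1 replicate 2 (0.0723), lin-41 replicate 1 (0.0532) or 2 (0.0567), changed specificity replicate 1 (0.0539) or 2 (0.0535), and with the replicate block (-3.29, adjusted p-value 0.0645). In the other comparisons cel-miR-250-3p ranged from -1.45 (changed specificity against gld-1) to 0.01 (gld-1 against the control), and none passed the threshold. By library totals the value in gld-1 turned to -2.18 and that in seed destruction against gld-1, -0.70 with TMM, to 0.84, and changed specificity against gld-1 became a call (-3.41, adjusted p-value 0.0364) beside those against the control in lin-41 and changed specificity.

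The arms of mir-250 can also be set against each other within a library, which needs no scaling between libraries. This description was added after the data had been seen and carries no test. Of the reads from the mir-250 hairpin, the 5p arm took 72.1% (95% Wilson interval 60.4 to 81.3), 73.2% (61.9 to 82.1) and 77.8% (54.8 to 91.0) in the controls. In these libraries the 5p arm was therefore the more frequent strand, even without a target. It took 99.5% (99.0 to 99.7) and 99.7% (98.2 to 99.9) in gld-1::gfp, 98.9% (97.9 to 99.4) and 95.5% (93.3 to 97.1) in seed destruction and 98.9% (97.2 to 99.6) and 98.1% (96.5 to 99.0) in changed specificity. None of these intervals reached those of the controls, though they cover counting error and not the spread between libraries. In endogenous gld-1 the libraries split, with 78.8% (70.0 to 85.6) in replicate 1, inside the control range of intervals, and 93.8% (89.6 to 96.3) in replicate 2. With alg-1 it took 75.9% (63.1 to 85.4) and 84.2% (62.4 to 94.5), with gfp::lin-41 82.6% (72.0 to 89.8) and with lin-41 61.3% (43.8 to 76.3) and 28.6% (8.22 to 64.1). lin-41 replicate 2, with 5 reads of the 3p and 2 of the 5p arm, was the only library in which the 3p arm was more frequent. Per read of the 3p arm, the 8 gld-1 transcript libraries held 3.73 to 318 reads of the 5p arm (median 71.4), and the other 8 held 0.400 to 5.33 (median 2.95). Of the gld-1 transcript libraries, 7 held more than 10. The value of 318 rests on 1 read of the 3p arm. Arm use also varied for mir-42, whose 3p and 5p arms had 155 and 20 reads in control replicate 1. These arms had 759 and 10 reads in gld-1::gfp replicate 1, 94 and 9 in seed destruction replicate 1 and 181 and 287 in gfp::lin-41. How many other hairpins shift in this way was not counted, so the shift is not shown to be particular to mir-250.

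**Figure D3:**
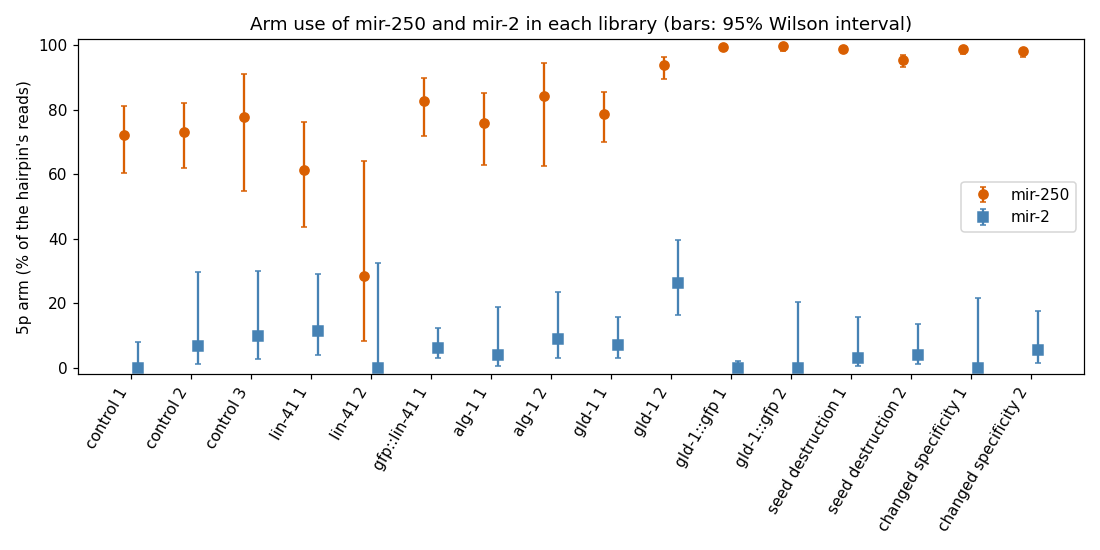
Share of each hairpin's reads that came from the 5p arm (y axis, percent) in the 16 libraries, for mir-250 (circles) and mir-2 (squares), with 95% Wilson intervals as bars. For mir-250 the share was 72.1% to 77.8% in the controls and 95.5% to 99.7% in the gld-1::gfp, seed destruction and changed specificity libraries, while for mir-2 it stayed at or under 26.4% in every library.

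cel-miR-2-3p, the guide arm of mir-2, was found in all 16 libraries, with 8 to 167 reads. In the controls it had 44, 14 and 18 reads (137, 68.5 and 272 normalised CPM), so the controls alone covered almost the whole range of the series. The gld-1 libraries held 64 and 39 reads (277 and 146), gld-1::gfp 167 and 15 (169 and 71.1), seed destruction 31 and 48 (91.8 and 148) and changed specificity 14 and 35 (74.6 and 118). The alg-1 libraries held 25 and 30 reads (90.6 and 185), lin-41 23 and 8 (84.8 and 78.0) and gfp::lin-41 105 (151). Ordered by mean level the groups ran from gld-1 (212 ± 92.5, n = 2), control, gfp::lin-41, alg-1, seed destruction, gld-1::gfp and changed specificity to lin-41 (81.4 ± 4.81, n = 2), and all neighbours in that order overlapped.

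No comparison of cel-miR-2-3p passed the threshold. Against the control the log2 fold changes were 0.47 in gld-1 (adjusted p-value 0.715), -0.35 in seed destruction (0.789), -0.65 in changed specificity (0.566), -0.16 in alg-1 (0.917), -0.90 in lin-41 (0.475) and -0.32 in gld-1::gfp (0.843). The approximate 95% intervals were wide, from -1.81 to 1.17 in gld-1::gfp and from -2.48 to 0.68 in lin-41, so differences of some size are not excluded. Against unedited gld-1 the values were -0.82 in seed destruction (adjusted p-value 0.997) and -1.13 in changed specificity (0.793), where library totals turned the former to 0.69 and made the latter a call (-3.07, adjusted p-value 0.0419). Over the 11 edgeR comparisons, the lowest unadjusted p-value was 0.120, and DESeq2 called cel-miR-2-3p in none of them. Library totals gave values under 0 in all 6 comparisons with the control, gld-1 included (-1.76), and calls in lin-41 (-4.49, adjusted p-value 0.0015), gld-1::gfp (-3.70, adjusted p-value 0.0042) and changed specificity (-4.84, adjusted p-value 5.8e-04).

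cel-miR-2-5p, the passenger arm, had 41 reads in all, in 11 of the 16 libraries, and did not reach the minimum for testing. With no filter on low counts, cel-miR-2-5p was called lower in gld-1::gfp (0 reads) than in gld-1 (5 and 14 reads), by -6.49 (edgeR adjusted p-value 0.0356). It reached 10 reads in a single library, gld-1 replicate 2, with 14 reads beside 39 of the 3p arm. There it took 26.4% of the mir-2 reads (95% Wilson interval 16.4 to 39.6). Elsewhere its share ran from 0% to 11.5%, and in gld-1::gfp replicate 1 it had 0 of 167 reads (interval 0 to 2.25). The same gld-1 library was the one in which the 5p arm of mir-250 exceeded its share in the other gld-1 library.

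cel-miR-43-3p, the arm of mir-43 grouped with the family, was close to absent. It had 10 reads in all, namely 4 in control replicate 2, 3 in gfp::lin-41 and 1 each in lin-41 replicate 1, alg-1 replicate 1 and gld-1 replicate 1, and it had 0 reads in the other 11 libraries. No read came from any of the 6 gld-1::gfp, seed destruction and changed specificity libraries. With a floor of 3 reads, 0 reads allow a share of up to 1.58 CPM in gld-1::gfp replicate 1 and up to 240.5 CPM, both by library total, in control replicate 3, so its absence in the shallow libraries says little. cel-miR-43-5p, the other arm, had 0 reads in all 16 libraries. The neighbouring hairpins were seen in every library. cel-miR-42-3p, of the miR-35 family that is abundant in embryos, had 8 to 759 reads, and cel-miR-44-3p had 40 to 566. The files list cel-miR-44-3p for another hairpin, mir-45, as well, so its reads cannot be assigned to the cluster alone.

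**Figure D4:**
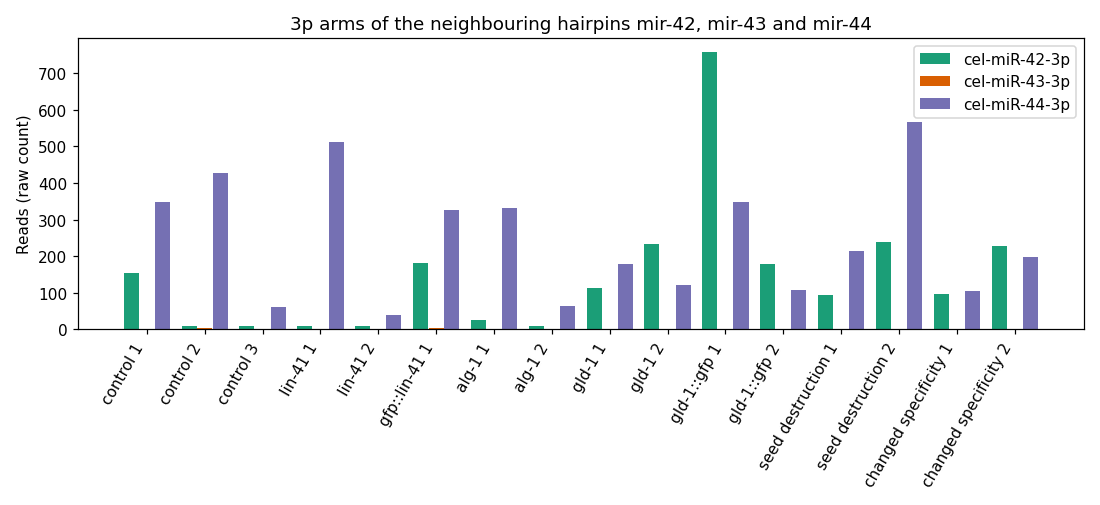
Raw reads (y axis) of the 3p arms of mir-42, mir-43 and mir-44, neighbours on chromosome II, in each of the 16 libraries. cel-miR-43-3p stayed at or under 4 reads while cel-miR-42-3p reached 759 and cel-miR-44-3p 566.

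The ratio of the 3p arms to each other was compared as the log2 of reads plus 1. Here the edited set pooled seed destruction and changed specificity (n = 4). The unedited set pooled gld-1 with gld-1::gfp (n = 4), which differ in strain and probes, so neither set holds replicates of a single condition. Between the edited and unedited sets, the log2 ratio of miR-2-3p to miR-43-3p was 4.92 ± 0.73 against 5.43 ± 1.42, a difference of -0.51 (exact two-sided permutation p-value 0.600, adjusted 0.876). The log2 ratio of miR-250-3p to miR-43-3p was 3.32 ± 0.88 against 2.88 ± 1.28, a difference of 0.44 (exact permutation p-value 0.657, adjusted 0.876). Between the 13 target and 3 control libraries the differences were 0.96 for miR-2-3p (exact permutation p-value 0.261, adjusted 0.876) and -0.07 for miR-250-3p (exact permutation p-value 0.921, adjusted 0.921). The 13 target libraries pool all groups other than the control, so they are not replicates of a single condition either. None of these 4 tests passed the threshold, but they cannot decide whether the arms changed relative to each other. No edited or gld-1::gfp library held a read of miR-43-3p. Where miR-43-3p was at 0, which is 11 of 16 libraries, the ratio holds the reads of the other arm alone and scales with depth.

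cel-miR-61-3p, from the hairpin next to mir-250, gave no call, while cel-miR-42-3p, from the hairpin next to mir-43, had the same sign as cel-miR-250-5p in all 6 comparisons with the control on the TMM scale. Of the 6 arms of mir-42, mir-44 and mir-61, 5 could be tested, and in the 6 comparisons with the control they gave 1 call in 30, for cel-miR-44-5p in gld-1 (-4.32, SE 1.50, adjusted p-value 0.0390). Over all miRNAs 12.5% to 22.3% were called in these comparisons. cel-miR-42-3p ranged from -1.93 in lin-41 (adjusted p-value 0.133) to 1.84 in gld-1::gfp (adjusted p-value 0.107), whereas its raw share was 0.100% ± 0.0985 in the controls (n = 3) and 0.0356% ± 0.0062 in gld-1::gfp (n = 2). Against gld-1 the neighbours gave 1 call each in lin-41 and alg-1, both for cel-miR-42-3p, which was lower there, as was cel-miR-250-5p. cel-miR-61-3p, whose hairpin lies 44 bases from mir-250, differed from the control by 0.55 with gld-1::gfp (SE 0.85, adjusted p-value 0.783), 0.24 in seed destruction (SE 0.85, adjusted p-value 0.854) and -0.12 in changed specificity (SE 0.87, adjusted p-value 0.925). Within libraries, there were 5.04 to 45.2 reads of cel-miR-250-5p per read of cel-miR-61-3p in the edited strains, 6.63 and 9.12 in gld-1::gfp, 1.64 and 4.53 in gld-1, 0.912 to 4.45 in the controls and 0.125 to 1.19 in lin-41, gfp::lin-41 and alg-1. The gld-1::gfp and edited libraries lay above all controls in this ratio too, and the gld-1 libraries did not separate from them.

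Across the 16 libraries, the tested miRNAs most like cel-miR-250-5p in normalised log2 level were cel-miR-66-5p (Pearson r 0.75), cel-miR-73-3p (0.74) and cel-miR-42-3p (0.73). The values of cel-miR-42-3p against gld-1 were -3.52 in lin-41 (adjusted p-value 0.0074) and -3.20 in alg-1 (adjusted p-value 0.0102). Most like cel-miR-250-3p were cel-miR-46-3p (0.83), cel-miR-8191-5p (0.73) and cel-miR-58a-3p (0.70). For cel-miR-2-3p they were cel-miR-85-3p (0.56), cel-miR-5549-3p (0.51) and cel-miR-228-5p (0.48), and cel-miR-71-5p, from the same host gene, stood at 0.08. cel-miR-5549-3p had a log2 fold change of 0 with no SE in lin-41 against the control, so its coefficient may rest on floor values. Between the arms of mir-250 the coefficient was -0.34, between cel-miR-250-3p and cel-miR-2-3p 0.20 and between cel-miR-250-5p and cel-miR-61-3p -0.03. These coefficients are descriptions over 16 libraries that share scaling and differ widely in depth.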

How the data were processed

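Per the labels and the study's methods, small RNA from pulldown elutions was made into libraries with the SMARTer smRNA-Seq kit. The authors trimmed reads with cutadapt 1.14, removed Escherichia coli reads with Bowtie2 2.3.3.1 and counted known miRNAs with miRDeep2 against miRBase. The deposited values are raw whole-number counts, with a row for each pair of precursor and mature miRNA. A mature miRNA listed for several precursors was counted by its largest row. Strand and near-identical sequences can limit how reads are assigned to a miRNA.

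The 112 miRNAs reaching 10 reads in 2 or more libraries were fitted with edgeR 4.0.16 (R 4.3.3): TMM factors, glmQLFit with robust estimation, 1 mean per group over 16 libraries, and glmQLFTest. p-values were adjusted by Benjamini-Hochberg over all tested miRNAs of a comparison, with a threshold of 0.05. SE was obtained from each fold change and its F statistic, and approximate intervals are normal intervals from it. No test was made for gfp::lin-41 (1 library). The median log2 fold change over all tested miRNAs was, against the control, 0.20 for gld-1, -0.30 for gld-1::gfp and -0.21 for changed specificity. Against gld-1 it was -0.15 for seed destruction and -0.37 for changed specificity. On 20 simulated sets with 16-fold changes in the gld-1 group, 99% of raised and 91% of lowered miRNAs were recovered, with 1 false call a set on average. All simulated libraries were drawn from the mean control composition with the same spread for each miRNA, and a median of 160 miRNAs was tested. These sets therefore do not show how smaller changes, or libraries filled by a single miRNA, would be handled. Ratios used exact permutation tests (scipy) with a pseudocount of 1, adjusted over 4. Alternatives were other scalings, filters, DESeq2 1.42.0, estimation without robustness, fits limited to the compared groups, rows summed over precursors, a factor for the name prefix, the replicate block, and leaving out each replicate.

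Members follow from their names, but the family, like the comparisons and lists, was chosen with earlier results of these data known. Named were the 6 members, the arms of mir-42, mir-44 and mir-61, miR-71-5p, let-7-5p and miR-84-5p by share, and the 3 miRNAs most correlated with each tested member. Positions come from the Ensembl release 115 annotation of WBcel235; seed sequences and seed matches in the target transcripts were not analysed here.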

Additional observations from a re-analysis of the deposited data

Results flagged for a closer look

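cel-miR-250-5p differed between pulldowns of different endogenous transcripts. Its log2 fold change was -3.47 for lin-41 against gld-1 (edgeR adjusted p-value 6.7e-04) and -2.13 for alg-1 against gld-1 (adjusted p-value 0.0184), with both libraries of lin-41 and of alg-1 below both gld-1 libraries. Each transcript had its own probe set, so transcript and probes cannot be told apart. The alg-1 call was lost with library totals (adjusted p-value 0.339), with no filter (0.0668) and without alg-1 replicate 1 (0.0643), alg-1 replicate 2 (0.165) or gld-1 replicate 2 (0.291).

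cel-miR-250-3p differed between the transgene and the endogenous form of gld-1, with a log2 fold change of -3.29 for gld-1::gfp against gld-1 (adjusted p-value 0.0377). These pulldowns differ in worm strain and probe set as well as in transcript, which cannot be told apart. Both gld-1::gfp libraries (8 and 1 reads) lay below both gld-1 libraries (22 and 13 reads) in normalised level. The call was lost in 13 of 26 alternatives, with adjusted p-values of up to 0.343.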

How the results depend on the processing

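Library totals as the only scaling changed most. With them, the number of members called was 3 in lin-41 against the control (1 with TMM), 1 in alg-1 (0), 2 in changed specificity (1), 1 in seed destruction against gld-1 (0), 2 in changed specificity against gld-1 (0) and 0 in alg-1 against gld-1 (1). Directions turned for cel-miR-250-5p in changed specificity (-1.21), gld-1 (-1.09) and gld-1::gfp (-0.53) against the control and in changed specificity against gld-1 (-0.12), for cel-miR-2-3p in gld-1 against the control (-1.76) and seed destruction against gld-1 (0.69) and for cel-miR-250-3p in the same comparisons (-2.18 and 0.84). Over the whole table, library totals called 85 miRNAs in gld-1::gfp (14 with TMM), 85 in lin-41 (20), 91 in changed specificity (24), 56 in gld-1 (25), 12 in seed destruction (20) and 37 in alg-1 (24) against the control and 33 in changed specificity against gld-1 (3).

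In lin-41 against the control, 0 members were called with no filter on low counts, upper-quartile factors, the replicate block or only the compared groups. In gld-1::gfp against the control, 1 of the 2 calls was left with no filter and with only the compared groups. In gld-1::gfp against gld-1, 0 were left with summed precursor rows, the replicate block or the name prefix as a factor, and in alg-1 against gld-1, 0 with no filter. With no filter, gld-1::gfp against gld-1 lost the call of cel-miR-250-3p (-3.21, edgeR adjusted p-value 0.122) and gained cel-miR-2-5p (-6.49, edgeR adjusted p-value 0.0356). The name prefix as a factor called 1 member in gld-1 against the control and 1 in each edited strain against gld-1, and only the compared groups called 1 in seed destruction against gld-1. Over the whole table, the prefix factor called 33 in gld-1::gfp and 34 in seed destruction against the control and 10 and 12 in seed destruction and changed specificity against gld-1; only the compared groups called 13 in lin-41 and 7 in gld-1::gfp against the control and 5 in seed destruction against gld-1 (2), where RLE factors and summed rows each called 1.

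Values near 0 turned sign. cel-miR-2-3p gave 0.44 in alg-1, 0.23 in gld-1::gfp and 0.25 in seed destruction against the control with the replicate block, and 0.12 in alg-1 with the prefix factor. cel-miR-250-3p in gld-1 against the control gave -0.033 with no filter, -0.21 with a mean of at least 10 reads, -0.068 with the replicate block, -0.062 with the prefix factor and -0.015 with only the compared groups. The replicate numbers did not pair the libraries: over 42 same-numbered pairs the mean correlation of deviations was -0.03 (-0.49 to 0.52). Over 17 pairs with the same name prefix, or both without a prefix, the mean correlation was 0.12. Beyond the calls named here, the replicate block changed none of the members' calls.

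Leaving out each replicate gave 0 to 1 members called in lin-41 against the control, 1 to 2 in gld-1::gfp against the control, 0 to 1 in gld-1::gfp against gld-1 and 0 to 1 in alg-1 against gld-1. For cel-miR-2-3p against the control it gave -1.06 to 0.40 (alg-1), -0.061 to 1.03 (gld-1), -0.73 to 0.21 (seed destruction) and -0.69 to 0.24 (gld-1::gfp), and for cel-miR-250-3p in gld-1 -0.55 to 0.41. The log2 ratios to miR-43-3p ran from -0.99 to 0.14 (miR-2-3p) and -0.18 to 0.78 (miR-250-3p) for the edited against the unedited set (gld-1 with gld-1::gfp). For target against control libraries they ran from -0.13 to 1.82 and -0.51 to 0.65. The whole-table counts ranged from 8 to 34 without a replicate in comparisons with the control and from 1 to 24 in those with gld-1. Where not shown above, the cause was not tested. The reads of cel-miR-250-3p, cel-miR-2-5p and both mir-43 arms limit what these libraries can show.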
